A study of Homo sapiens with 10 samples.

Results

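Guide RNA g2 against the long noncoding RNA LHFPL3-AS2 was compared with an empty guide plasmid in Caco-2 cells, a line from a human colon carcinoma which in culture comes to resemble absorptive intestinal cells. The members were the 2 libraries that carry the group label LHFPL3-AS2_g2, called g2 here, and the 5 that carry the label gCtl, together 7 of the 10 libraries of the series. The 3 libraries of another guide, g1, were left out. Replicate numbers below follow the order in which the series lists the libraries of a group, since the labels give none. Cells of both groups descended from a Caco-2 clone selected with puromycin that stably carried dCas9-KRAB, in which a Cas9 that no longer cuts DNA is joined to a domain that represses transcription. They then received a lentiviral plasmid with a hygromycin gene and a U6 promoter, with the g2 sequence inserted or empty. RNA was converted to 3' end libraries, whose reads lie next to the polyA tail, and estimated counts were available for every annotated transcript. The labels do not say whether libraries of a group came from separate cultures or infections, so the p-values measure only the spread between these libraries. Counts do not tell fewer expressing cells from less RNA per cell.

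Intestinal epithelial cells divide in the crypt, where Wnt ligands keep beta-catenin active, and mature as they leave it, gaining a brush border of microvilli, digestive enzymes, transporters and detoxifying enzymes, or the mucus granules of goblet cells. Maturation is carried by transcription factors such as CDX2, the HNF4 and the KLF families. Energy comes from the respiratory chain, whose subunits are encoded partly in the mitochondrial genome and mostly in the nucleus. The results are given in the order target gene, largest changes, energy and lipid metabolism, intestinal functions, signalling, cell division, adhesion, protein turnover, gene families by name, and chromosomes.

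The g2 spacer is shown because it marks the place the repressor was directed to. It is printed in the sense of LHFPL3-AS2 transcription, with the 20 bases of the guide in lower case and the NGG motif that Cas9 needs next to them in capitals.
g2 site: ctacctcatggcatgttttgAGG
The 20 bases lay at chr7:104926497-104926516 (GRCh38, minus strand), in exon 1 of both annotated transcripts of LHFPL3-AS2. They began at base 130 of the longer transcript, which has 1832 bases, and at base 115 of the shorter one. Among the reference transcripts (GENCODE v29) these 2 were the only ones with a full match. The gene spans chr7:104894628-104926645, and its 3' part overlaps LHFPL3, which lies on the opposite strand at chr7:104328656-104907232.

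LHFPL3-AS2 was not lower in the libraries labelled g2. Its level was 1.73, 0.840, 3.73, 1.73 and 3.12 RPM (counts scaled to the library's total) in gCtl and 2.16 and 6.01 RPM in g2. The first g2 value lay inside the gCtl range and the second above it. The means were 2.23 ± 1.17 (SD, n = 5) and 4.09 ± 2.72 RPM (SD, n = 2), with a log2 fold change of 0.90 ± 0.54 (SE) and an adjusted p of 0.3 by edgeR's quasi-likelihood test. The exact two-sided permutation p was 0.286, where the smallest that 2 against 5 libraries allow is 0.0952. They come from 4.39 to 44.0 estimated counts per library, so a decrease of a modest size was not detectable at this depth. The neighbour LHFPL3 had 0 to 5.0 counts per library. By qPCR the study reported a reduction of LHFPL3-AS2 with both guides relative to gCtl. All directions below are therefore those of the libraries labelled g2, not of a loss of the RNA measured in these libraries. Of the 8 tested genes within 1 Mb of LHFPL3-AS2, 0 were called by edgeR, 1 by DESeq2 and 2 by limma, and 3 had an unadjusted p under 0.05. Their median log2 fold change was -0.21. In 4 of these 8 the groups did not overlap, a property that 38.8% of all tested genes had.

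The g2 libraries differed from gCtl in what their counts fell on. The total was 3838803 to 5674360 estimated counts in gCtl and 6130698 and 7325087 in g2. Genes with a protein-coding transcript took 71.9, 74.8, 68.3, 72.0 and 68.9% in gCtl and 55.3 and 58.5% in g2. The 3 annotated RNAs on chromosome 21 that lie across copies of the 18S ribosomal RNA gene, on the opposite strand, together took 10.2, 6.10, 9.73, 8.52 and 10.2% in gCtl and 25.8 and 24.9% in g2. Reads of 18S rRNA and of these RNAs cannot be told apart here. For both shares no g2 library overlapped gCtl, which gives the smallest p that the exact two-sided permutation test allows (0.0952). The mitochondrial rRNAs took 13, 13.6, 16.1, 14 and 15.8% in gCtl and 14.2 and 10.5% in g2, with overlap between the groups. The 100 most abundant protein-coding genes took 20.8 ± 1.71% in gCtl and 12.9 ± 0.525% in g2 (SD). The part of these composition differences in the results below was not tested.

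**Figure D1:**
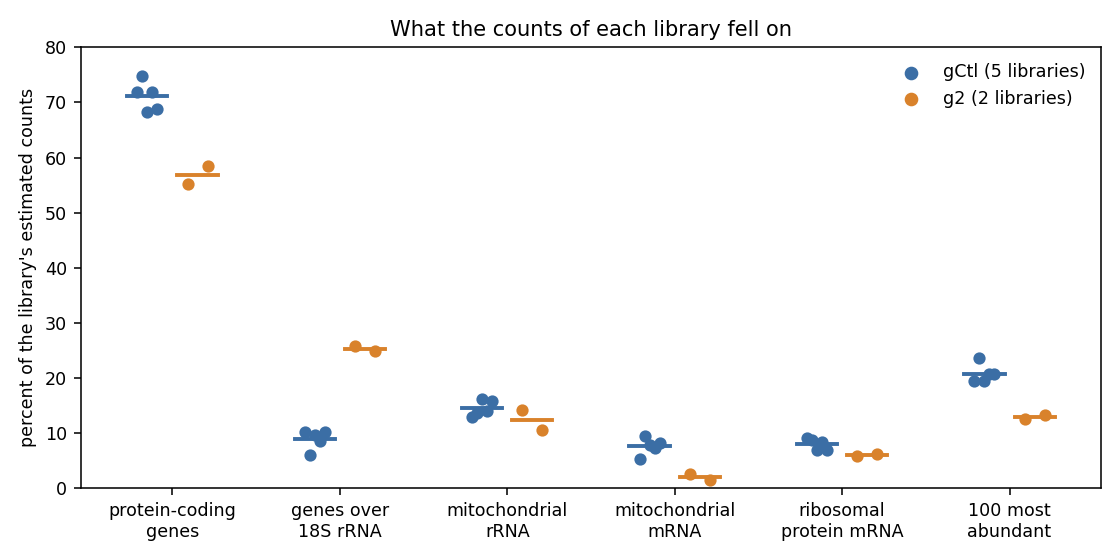
Percent of each library's estimated counts (vertical axis) on 6 groups of genes, with points for libraries and bars for group means, in gCtl (5 libraries) and g2 (2 libraries). The g2 libraries lie below gCtl for protein-coding genes, mitochondrial mRNA, ribosomal protein mRNA and the 100 most abundant genes, and above it for the RNAs across 18S rRNA.

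The markers of the line were present in both groups. The 12 epithelial markers, among them VIL1, CDX2, EPCAM and HNF4A, summed to 3470.4 to 4544 CPM (counts scaled to the library's size by TMM, the unit of all levels below) in gCtl and to 3916 and 4163 in g2. The 8 leukocyte markers summed to 17.4 to 30.8 and to 35.3 and 36.4 CPM, with LYZ the most abundant at up to 35.0 CPM in a library. The 10 fibroblast and endothelial markers summed to 29.4 to 62.9 and to 15.1 and 25.5 CPM, with PDGFRA the most abundant and VWF at 0 counts in all. PDGFRA, a growth factor receptor, was called lower in g2 (-3.13 ± 0.43, log2 fold change ± SE).

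Across all genes the libraries labelled g2 stood far from gCtl. Of 11399 protein-coding genes tested, 2644 (23.2%) were called, that is, differed at least 1.5-fold with an adjusted p no higher than 0.05. The 1376 lower genes were 12.1% and the 1268 higher genes 11.1% of those tested, and the median log2 fold change was 0.025. The g2 and gCtl libraries did not overlap for 38.8% of tested genes (18.9% with g2 lower and 19.9% with g2 higher) and for 2491 of the 2644 called. A gene had to exceed 3 RPM in at least 2 libraries to be tested. Of those tested, 310 did so in fewer than 2 gCtl libraries and passed only with g2, of which 102 were called higher. Likewise 1562 passed only with gCtl, of which 315 were called lower. The counts and medians of gene lists below cover such genes and are descriptions. The p-value and the lack of overlap of such a gene are descriptions too, since the filter took it by its higher group. Scaling by library totals instead of TMM moved the median to -0.17 and gave 2047 lower and 688 higher. Limma on log2(RPM + 1) gave 2079 and 590. List counts and medians given below for these settings are to be read against these values over all genes. Fewer genes were called without g2 replicate 2 (1619) than without g2 replicate 1 (3201). Short transcripts lay lower than long ones: the median log2 fold change rose from -0.22 in the fifth of genes with the shortest annotated transcripts to 0.20 in the fifth with the longest. With that trend removed 2421 genes were called. Below, a value after a gene is its log2 fold change of g2 over gCtl ± SE, and every gene so described passed the thresholds unless stated. For lists, changes of a count by 1 and of a median by less than 0.1 when a library is left out are not listed, nor, with limma, DESeq2 or a trend removed, changes of a count by less than 3.

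The largest increases, in order of the fitted fold change and among genes without overlap between the groups and with a mean of at least 10 CPM in the higher group, began with FCGBP, FER1L6, DACH1 and PTPRR. FCGBP, a mucus protein of goblet cells (chr19:39863323-39934626, GRCh38), had 0.371, 0, 0.525, 0 and 0 CPM in the gCtl libraries and 17.0 and 18.1 CPM in the g2 libraries. With 3 counts over all gCtl libraries against 143 in g2, the ratio of the summed counts was 98.0-fold (exact 95% interval 32.9 to 481, counting error only). FER1L6, of the ferlin family of membrane proteins, had 0.371, 0, 0.525, 1.44 and 1.57 CPM in the gCtl libraries and 33.1 and 68.8 CPM in the g2 libraries (log2 fold change 5.97 ± 0.47 (SE), adjusted p = 1.2e-05). The tyrosine phosphatase gene PTPRR, whose product acts on MAP kinases, had 1.48, 0.277, 0.525, 0.361 and 0 CPM in the gCtl libraries and 19.4 and 27.0 CPM in the g2 libraries (log2 fold change 5.49 ± 0.52 (SE), adjusted p = 2.7e-05). The lack of overlap in these genes follows from that choice. FCGBP, FER1L6 and PTPRR, and NTS, GUCY2C, PDE3A, DACH1, RP11-529K1.3 and AGR3 below, passed the level filter only with g2. Their p-values and calls are therefore descriptions. For the other increases named here the group they needed to pass is not stated. NTS, which encodes the gut peptide neurotensin, had 0.371, 0, 0.787, 0 and 0.261 CPM in the gCtl libraries and 12.6 and 10.5 CPM in the g2 libraries (log2 fold change 5.12 ± 0.62 (SE), adjusted p = 0.00016). GUCY2C, the receptor for the intestinal peptides guanylin and uroguanylin and for bacterial heat-stable enterotoxin, had 0.742, 1.66, 2.36, 1.08 and 1.04 CPM in the gCtl libraries and 49.0 and 32.8 CPM in the g2 libraries (log2 fold change 4.81 ± 0.34 (SE), adjusted p = 9.5e-06). PDE3A, a phosphodiesterase that breaks down cyclic nucleotides, had 1.11, 1.11, 0.787, 1.08 and 0.784 CPM in the gCtl libraries and 14.8 and 23.9 CPM in the g2 libraries (log2 fold change 4.29 ± 0.38 (SE), adjusted p = 2.3e-05). Other increases among the 15 largest were DACH1 (5.54 ± 0.70), RNASE1 (4.91 ± 0.40), HEPACAM2 (4.43 ± 0.48), MALRD1 (4.41 ± 0.41), RP11-529K1.3 (3.85 ± 0.91), CCSER1 (3.66 ± 0.32), BCAS1 (3.45 ± 0.28) and AGR3 (3.39 ± 0.48), among which DACH1 is a transcription factor, RNASE1 a secreted ribonuclease, and AGR3 a disulfide isomerase of secretory epithelia. Without g2 replicate 1, the log2 fold change was 3.58 for MALRD1 and 2.76 for AGR3. Without g2 replicate 2, the log2 fold change was 5.34 for FER1L6, and the call was lost for RP11-529K1.3 (log2 fold change 3.15). In the absence of gCtl replicate 1, DACH1 had at most 3 counts left in gCtl, and no fold is given. Without gCtl replicate 1, the log2 fold change was 6.18 for PTPRR. No fold is given without gCtl replicate 2 for RP11-529K1.3, which had at most 3 counts left in gCtl. In the absence of gCtl replicate 3, FCGBP and NTS had at most 3 counts left in gCtl, and no fold is given. The thresholds were not passed by RP11-529K1.3 with DESeq2 (3.97, adjusted p = 0.4).

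**Figure D2:**
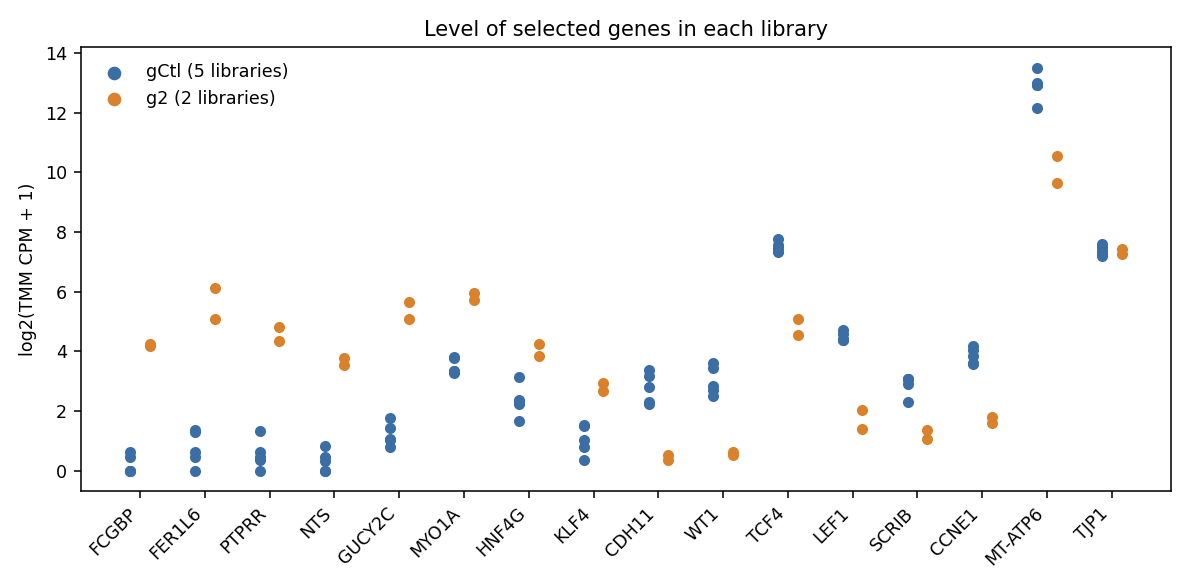
Level of 16 genes as log2(TMM CPM + 1) (vertical axis) in each gCtl and g2 library, 1 point per library. FCGBP to KLF4 lie higher in both g2 libraries, CDH11 to MT-ATP6 lie lower, and TJP1 overlaps between the groups.

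Among the genes chosen in the same way, the largest decreases began with LIN7A, a gene known by a clone name and KCNJ8. LIN7A, a scaffold protein of cell polarity complexes (chr12:80792520-80937925, GRCh38), had 12.6, 16.1, 16.0, 13 and 18.8 CPM in the gCtl libraries and 0.548 and 0 CPM in the g2 libraries. The summed counts were 261 in gCtl and 2 in g2, a ratio of 63.5-fold (exact 95% interval 17.4 to 527, counting error only). KCNJ8, a subunit of ATP-sensitive potassium channels, had 13, 12.5, 20.5, 20.2 and 12.8 CPM in the gCtl libraries and 0.274 and 0.670 CPM in the g2 libraries (log2 fold change -4.91 ± 0.53 (SE), adjusted p = 7.7e-05), and ABCC9, the partner subunit of the same channel, also fell (-2.42 ± 0.24). ACTL8, an actin-like gene, had 81.6, 86.7, 62.9, 79.4 and 55.9 CPM in the gCtl libraries and 5.48 and 2.68 CPM in the g2 libraries (log2 fold change -4.19 ± 0.32 (SE), adjusted p = 1.2e-05). CLSTN2, a calsyntenin of synapses, had 26.3, 28.8, 50.9, 35.0 and 43.6 CPM in the gCtl libraries and 2.74 and 2.46 CPM in the g2 libraries (log2 fold change -3.82 ± 0.37 (SE), adjusted p = 3.2e-05). LTBP1, which binds latent TGF-beta in the matrix, had 47.5, 91.7, 87.6, 76.8 and 124 CPM in the gCtl libraries and 6.30 and 8.49 CPM in the g2 libraries (log2 fold change -3.52 ± 0.36 (SE), adjusted p = 4.8e-05). UCHL1, a ubiquitin hydrolase abundant in neurons and neuroendocrine cells, had 28.9, 29.6, 36.7, 30.3 and 27.4 CPM in the gCtl libraries and 3.56 and 1.56 CPM in the g2 libraries (log2 fold change -3.60 ± 0.34 (SE), adjusted p = 2.7e-05). Other decreases among the 15 largest with at least 4 counts in g2 were SLC35D3 (-4.55 ± 0.65), CH507-9B2.5 (-4.45 ± 0.60), IMPDH1 (-4.35 ± 0.68), COLGALT2 (-4.18 ± 0.42), RNF123 (-3.81 ± 0.57), INHBB (-3.58 ± 0.44) and DPYSL3 (-3.55 ± 0.35). RP11-231C18.3, a gene known by its clone name, had 181 counts in gCtl and 2 in g2, a ratio of 44.0-fold (exact 95% interval 12 to 366, counting error only). IMPDH1 makes guanine nucleotides and INHBB encodes an activin subunit. LIN7A, KCNJ8, ACTL8, CLSTN2, UCHL1, RP11-231C18.3, CH507-9B2.5, IMPDH1 and RNF123 passed the level filter only with gCtl, so their p-values and calls are descriptions. For the other decreases named here the group they needed to pass is not stated. No fold is given without g2 replicate 1 for LIN7A and CH507-9B2.5, which had at most 3 counts left in g2. With g2 replicate 1 left out, the log2 fold change was -4.28 for UCHL1 and -3.53 for IMPDH1. In the absence of g2 replicate 2, LIN7A, KCNJ8, CH507-9B2.5, IMPDH1 and RNF123 had at most 3 counts left in g2, and no fold is given.

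Several genes that the study measured by qPCR or western blot were tested here. TCF4, a basic helix-loop-helix E protein that differs from the Wnt effector TCF7L2 despite its name, had 175, 159, 189, 216 and 165 CPM in the gCtl libraries and 32.6 and 22.6 CPM in the g2 libraries (log2 fold change -2.72 ± 0.21 (SE), adjusted p = 1.2e-05). The study describes its TCF4 as a factor that beta-catenin activates in Wnt signalling. Whether its qPCR and western blot measured this gene or TCF7L2 was not tested, so the value is not set against that result. CDH11, a cadherin of mesenchymal cells, had 5.94, 8.03, 3.93, 9.38 and 3.66 CPM in the gCtl libraries and 0.274 and 0.447 CPM in the g2 libraries. The summed counts were 100 in gCtl and 3 in g2, a ratio of 16.2-fold (exact 95% interval 5.39 to 79.9, counting error only). WT1, the Wilms tumour transcription factor, had 5.56, 6.09, 9.97, 11.2 and 4.70 CPM in the gCtl libraries and 0.548 and 0.447 CPM in the g2 libraries (log2 fold change -3.83 ± 0.66 (SE), adjusted p = 0.0015). SCRIB, a basolateral polarity scaffold, had 7.42, 7.48, 7.34, 6.49 and 3.92 CPM in the gCtl libraries and 1.10 and 1.56 CPM in the g2 libraries (log2 fold change -2.25 ± 0.51 (SE), adjusted p = 0.0078). CCNE1, cyclin E1 of the entry into S phase, had 15.6, 13.3, 11, 11.2 and 17.0 CPM in the gCtl libraries and 2.46 and 2.01 CPM in the g2 libraries (log2 fold change -2.60 ± 0.38 (SE), adjusted p = 0.0006). These 5 fell with no overlap between the groups. Of them, CDH11, WT1, SCRIB and CCNE1 passed the level filter only with gCtl. CTNNB1, beta-catenin, on chromosome 3, had 34.5, 34.9, 45.6, 47.6 and 27.9 CPM in the gCtl libraries and 22.4 and 21 CPM in the g2 libraries (log2 fold change -0.81 ± 0.24 (SE), adjusted p = 0.028). MYO1D, an unconventional myosin, fell (-1.40 ± 0.31), as did TFRC, the transferrin receptor (-1.12 ± 0.24). GAPDH, often used as a reference gene, had 601, 602, 417, 539 and 241 CPM in the gCtl libraries and 225 and 112 CPM in the g2 libraries (log2 fold change -1.51 ± 0.35 (SE), adjusted p = 0.0082). TJP1, the tight junction protein ZO-1, had 163, 146, 178, 153 and 192 CPM in the gCtl libraries and 172 and 152 CPM in the g2 libraries, and CDH1, E-cadherin, had 209.6, 159, 239.7, 215 and 229 CPM in the gCtl libraries and 190.3 and 127 CPM in the g2 libraries. TJP1 was not called (log2 fold change -0.042 ± 0.16 (SE), adjusted p = 0.87). CDH1 (log2 fold change -0.41 ± 0.20 (SE), adjusted p = 0.15) and CDK2, the kinase partner of cyclin E1 (log2 fold change -0.56 ± 0.23 (SE), adjusted p = 0.09), were not called by edgeR. With limma (adjusted p = 0.032 and 0.033) and with library totals (0.041 and 0.032) both passed the thresholds as lower. When g2 replicate 1 was left out, the log2 fold change was -2.03 for MYO1D and -2.12 for GAPDH, and CDH1 passed the thresholds (log2 fold change -0.75). With g2 replicate 2 left out, the call was lost for CTNNB1 (log2 fold change -0.76), MYO1D (log2 fold change -0.95), TFRC (log2 fold change -0.84) and GAPDH (log2 fold change -1.09). Without gCtl replicate 3, the call was lost for CTNNB1 (log2 fold change -0.73). Without gCtl replicate 4, the call was lost for CTNNB1 (log2 fold change -0.72). Without gCtl replicate 5, CDK2 passed the thresholds (log2 fold change -0.66). The thresholds were not passed by CTNNB1 with the median of each chromosome taken out (-0.50, adjusted p = 0.14).

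Genes of mitochondrial energy production were lower together. Of the 13 mRNAs of the mitochondrial genome, 13 were called lower and 0 higher, where 12.1% of all tested genes were called lower, and the median log2 fold change was -1.66 against 0.025 over all genes. They took 5.27, 9.56, 7.84, 7.39 and 8.16% in gCtl and 2.58 and 1.5% in g2 of all counts, again with no overlap and the smallest exact permutation p (0.0952). MT-ATP6, a subunit of ATP synthase, had 4502, 11643, 7752, 8166 and 7812 CPM in the gCtl libraries and 1475 and 791 CPM in the g2 libraries (log2 fold change -2.82 ± 0.37 (SE), adjusted p = 0.00029), and MT-CO3, a subunit of complex IV, had 13799, 21507, 19865, 17582 and 18564 CPM in the gCtl libraries and 5447 and 2079 CPM in the g2 libraries (log2 fold change -2.28 ± 0.35 (SE), adjusted p = 0.00078). The mRNAs fell in both g2 libraries, further in replicate 2 than in replicate 1 (mean differences from gCtl -2.21 and -1.43 on the log2 scale), while the gCtl libraries lay between -0.48 and 0.36. Of the 75 nuclear-encoded subunits of the respiratory chain and ATP synthase tested, 34 were called lower and 0 higher (median -0.66). Their mean difference was -0.47 and -0.95 in g2, and -0.36 in gCtl replicate 5, the lowest of gCtl. By complex, the number called lower was 15 of 37 for complex I (median -0.59), 1 of 4 for complex II (median -0.38), 5 of 9 for complex III (median -0.65), 6 of 10 for complex IV (median -0.83) and 7 of 15 for ATP synthase (median -0.92). The larger decreases included NDUFA1 (-2.21 ± 0.33), CYC1 (-1.67 ± 0.23), COX6A1 (-1.52 ± 0.30) and ATP5J (-1.60 ± 0.31), with NDUFA1 in complex I, CYC1 (cytochrome c1) in complex III, COX6A1 in complex IV and ATP5J in ATP synthase. Once the trend with transcript length was taken out, 22 of these subunits were called lower and 0 higher, and the median was -0.41. Leaving out g2 replicate 1, the log2 fold change was -3.15 for MT-CO3 and -2.16 for COX6A1. When 1 library was left out, the counts that moved by over 1.5 times were 18 or 22 lower in the respiratory chain list without g2 replicate 2 or gCtl replicate 2, 1 or 3 lower in the complex III list without g2 replicate 2 or gCtl replicate 1, 2, 3 or 4 and 1 lower in the complex IV list without g2 replicate 2. List medians that moved by over 1.5 times with 1 library left out reached -0.35 without g2 replicate 2 in the complex I list, -0.71 without g2 replicate 1 and -0.17 without g2 replicate 2 in the complex II list and -0.56 without g2 replicate 2 in the ATP synthase list. With the length trend removed the numbers lower and higher were 9 and 0 in the complex I list and 2 and 0 in the complex III list.

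Mitochondrial translation and the remaining energy pathways moved less uniformly. Of 76 mitochondrial ribosomal proteins, 15 were called lower and 5 higher (median -0.25), where 12.1% of all tested genes were called lower and 11.1% higher, with MRPS24 and MRPL40 among them (-1.92 ± 0.34 and -1.71 ± 0.24, in that order), and with the length trend taken out 8 lower and 9 higher. Of 17 genes of the tricarboxylic acid cycle, 4 were called lower and 0 higher (median -0.051), led by IDH3B, a subunit of isocitrate dehydrogenase (-1.37 ± 0.18). Of 14 glycolysis genes, 6 were called lower and 0 higher (median -0.56). They included the phosphofructokinase PFKP, which catalyses the committed step, and the mutase PGAM1 (-2.06 ± 0.25 and -1.74 ± 0.25, in that order). PFKP had 61.9, 40.4, 44.8, 51.2 and 40.7 CPM in the gCtl libraries and 10.7 and 12.1 CPM in the g2 libraries, without overlap. Of 7 pentose phosphate genes, 3 were called lower and 0 higher (median -0.20). Hypoxia-responsive genes outside glycolysis went both ways, with 2 called lower and 3 higher of 16. Among them SLC2A3, a glucose transporter, fell (-2.31 ± 0.19) and the histone demethylase KDM3A rose (1.05 ± 0.21). Without g2 replicate 1, the log2 fold change was -2.55 for MRPS24. Counts that moved by over 1.5 times when 1 library was left out were 8 or 9 lower in the mitochondrial ribosomal proteins list without g2 replicate 2 or gCtl replicate 2 or 4, 3 higher in the mitochondrial ribosomal proteins list without g2 replicate 2 or gCtl replicate 2, 3 or 4, 1 or 2 lower in the tricarboxylic acid cycle list without g2 replicate 2 or gCtl replicate 2 or 4, 2 lower in the glycolysis list without g2 replicate 2, 1 lower in the pentose phosphate pathway list without g2 replicate 2, 1 higher in the hypoxia-responsive genes outside glycolysis list without g2 replicate 1 or gCtl replicate 2, 3 or 4 and 5 higher in the hypoxia-responsive genes outside glycolysis list without g2 replicate 2. With 1 library left out, list medians that moved by over 1.5 times reached -0.15 without g2 replicate 1 in the tricarboxylic acid cycle list, -0.91 without g2 replicate 1 in the glycolysis list and -0.80 to -0.30 without g2 replicate 1 or 2 or gCtl replicate 2 or 5 in the pentose phosphate pathway list. By the mean difference from gCtl on the scale log2(TMM CPM + 1), the groups overlapped, with -0.26 for gCtl replicate 5 against -0.17 and -0.37 for g2 in the mitochondrial ribosomal proteins list, -0.19 for gCtl replicate 5 against -0.14 and -0.27 for g2 in the tricarboxylic acid cycle list and -0.56 for gCtl replicate 5 against -0.29 and -0.56 for g2 in the pentose phosphate pathway list. With library totals the numbers lower and higher were 23 and 2 in the mitochondrial ribosomal proteins list and 4 and 1 in the hypoxia-responsive genes outside glycolysis list, and with limma 25 and 2 in the mitochondrial ribosomal proteins list.

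Among genes of cholesterol and fatty acid synthesis and of lipoprotein assembly, more were called lower than higher. Of 25 cholesterol synthesis genes, 7 were called lower and 1 higher (median -0.11), where 12.1% of all tested genes were called lower and 11.1% higher, including DHCR7 (-1.56 ± 0.33), a reductase of the last steps. Of 12 fatty acid synthesis genes, 4 were called lower and 0 higher (median -0.37), including FASN, the fatty acid synthase (-1.15 ± 0.17). Of 28 genes of fatty acid oxidation and ketogenesis, 5 were called lower and 3 higher (median -0.11), shares of 17.9% and 10.7%, near those of all genes. SLC25A20, the carrier that brings acylcarnitine into mitochondria, had 5.56, 5.26, 5.25, 8.30 and 3.92 CPM in the gCtl libraries and 0.274 and 0.670 CPM in the g2 libraries (log2 fold change -3.43 ± 0.65 (SE), adjusted p = 0.0026). SLC25A20 passed the level filter only with gCtl, so its p-value is a description. Of 14 genes of lipoprotein assembly, 4 were called lower and 1 higher (median -0.24). The higher gene was MTTP, which loads lipid onto apolipoprotein B, with 28.6, 35.7, 25.2, 28.9 and 24.6 CPM in the gCtl libraries and 142 and 104 CPM in the g2 libraries (log2 fold change 2.10 ± 0.19 (SE), adjusted p = 2.2e-05). Liver-type plasma proteins, which Caco-2 cells also make, went both ways, with 7 called lower and 3 higher of 21. Their median was 0.27, but -0.20 without g2 replicate 1 and -0.21 without g2 replicate 2. Those that fell included AHSG (-3.18 ± 0.22), AGT (-2.39 ± 0.25) and F7 (-2.23 ± 0.34). With the length trend removed 5 were lower and 6 higher. With g2 replicate 1 left out, the log2 fold change was -2.64 for DHCR7 and -2.90 for F7. No fold is given without g2 replicate 2 for SLC25A20, which had at most 3 counts left in g2. When g2 replicate 2 was left out, the log2 fold change was -0.94 for DHCR7. When 1 library was left out, the counts that moved by over 1.5 times were 2 lower in the cholesterol synthesis list without g2 replicate 2, 3 higher in the cholesterol synthesis list without g2 replicate 2, 1 lower in the fatty acid synthesis list without g2 replicate 2, 2 or 3 lower in the fatty acid oxidation and ketogenesis list without g2 replicate 2 or gCtl replicate 2 or 3, 1 higher in the fatty acid oxidation and ketogenesis list without g2 replicate 2, 2 lower in the lipoprotein list without g2 replicate 2 and 1 higher in the plasma protein list without gCtl replicate 3 or 4. List medians that moved by over 1.5 times with 1 library left out reached -0.42 without g2 replicate 1 in the cholesterol synthesis list, -0.58 without g2 replicate 1 in the fatty acid synthesis list, -0.47 or -0.21 without g2 replicate 1 or gCtl replicate 5 and 0.023 without g2 replicate 2 in the fatty acid oxidation and ketogenesis list and -0.66 without g2 replicate 1 and -0.031 without g2 replicate 2 in the lipoprotein list. The groups overlapped by their mean difference from gCtl, on the scale log2(TMM CPM + 1), with -0.27 for gCtl replicate 5 against -0.088 and -0.60 for g2 in the cholesterol synthesis list, -0.21 for gCtl replicate 5 against -0.11 and -0.62 for g2 in the fatty acid synthesis list, -0.18 for gCtl replicate 5 against -0.08 and -0.22 for g2 in the fatty acid oxidation and ketogenesis list, -0.051 and -0.11 for gCtl replicate 4 and 5 against -0.021 and -0.56 for g2 in the lipoprotein list and -0.22 for gCtl replicate 1 against -0.16 and -0.44 for g2 in the plasma protein list. Scaled to library totals, the numbers lower and higher were 8 and 1 in the plasma protein list, and with limma 7 and 1 in the lipoprotein list.

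Among intestinal transcription factors, goblet cell genes and brush border genes, more were called higher than lower. Of 24 intestinal transcription factors tested, 0 were called lower and 9 higher, where 12.1% of all tested genes were called lower and 11.1% higher. Of the higher ones 2, KLF4 and HNF4G, had passed the level filter only with g2. KLF4, a factor of differentiated epithelium and goblet cells, had 1.85, 0.277, 1.84, 0.721 and 1.04 CPM in the gCtl libraries and 6.57 and 5.36 CPM in the g2 libraries (log2 fold change 2.35 ± 0.56 (SE), adjusted p = 0.0091). HNF4G, a nuclear receptor of enterocytes, had 7.79, 3.88, 4.2, 2.16 and 3.66 CPM in the gCtl libraries and 18.1 and 13.4 CPM in the g2 libraries (log2 fold change 1.86 ± 0.39 (SE), adjusted p = 0.0047). The groups did not overlap in either, but both genes entered the test through g2, so these values are descriptions. Of 8 mucin, trefoil and goblet cell genes, 0 were called lower and 5 higher. FCGBP and AGR3, 2 of these, had passed the level filter only with g2. The others were MUC13, a membrane mucin (1.34 ± 0.21), ZG16, a lectin of goblet cell granules (1.93 ± 0.35), and AGR2, the isomerase that folds mucins (0.87 ± 0.25). When g2 replicate 1 was left out, the call was lost for AGR2 (log2 fold change 0.62). Without gCtl replicate 2, the call was lost for AGR2 (log2 fold change 0.87). With gCtl replicate 3 left out, the call was lost for AGR2 (log2 fold change 0.81). The thresholds were not passed by AGR2 with library totals (0.67, adjusted p = 0.075) and limma (0.71, adjusted p = 0.066).

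Of 22 genes of the brush border core and its linkers, 3 were called lower and 8 higher (median 0.34), where 12.1% of all tested genes were called lower and 11.1% higher. MYO1A, the myosin that ties the microvillus core to the membrane, had 12.6, 9.14, 12.9, 8.66 and 9.14 CPM in the gCtl libraries and 52.0 and 60.5 CPM in the g2 libraries (log2 fold change 2.42 ± 0.22 (SE), adjusted p = 2.3e-05), and EZR, ezrin, rose as well (0.95 ± 0.16), whereas PDZK1, a scaffold of apical transporters, fell (-1.29 ± 0.26). Of 6 brush border hydrolases, 2 were called lower and 2 higher, with the metalloprotease MEP1A among the higher ones (2.21 ± 0.46). Of 32 drug-metabolizing enzymes, 3 were called lower and 8 higher (median 0.32), led by the sulfotransferase SULT1C2 and the glutathione transferase GSTA1 (2.63 ± 0.31 and 2.31 ± 0.19, in that order). The nuclear receptors were called as often lower as higher, with 5 of 26 each way. THRB, a thyroid hormone receptor (1.62 ± 0.15), and NR2F1 (2.08 ± 0.27) rose and NR2F2 fell (-1.25 ± 0.20), the last 2 being related orphan receptors. Of 6 keratins, 1 was called lower and 1 higher (median -0.24), the latter being KRT20, a keratin of mature enterocytes and goblet cells (1.95 ± 0.39). Among 26 transporters of sugars, amino acids and peptides, 8 were called lower and 2 higher (median -0.39). SLC1A5, which carries glutamine, and SLC3A2, the heavy chain of several amino acid transporters, fell (-2.18 ± 0.30 and -0.99 ± 0.21, in that order), and SLC6A20, which carries proline, rose (2.46 ± 0.18). Leaving out g2 replicate 1, the log2 fold change was -1.92 for PDZK1, and the call was lost for MEP1A (log2 fold change 1.53). When 1 library was left out, the counts that moved by over 1.5 times were 0 lower in the hydrolase list without g2 replicate 2, 4 higher in the drug-metabolizing enzymes list without g2 replicate 2, 3 lower in the nuclear receptor list without g2 replicate 2 and 3 to 5 lower in the transporter list without g2 replicate 2 or gCtl replicate 1, 2, 3 or 4. List medians that moved by over 1.5 times with 1 library left out reached 0.17 without g2 replicate 2 in the drug-metabolizing enzymes list and -0.41 or -0.37 without g2 replicate 1 or gCtl replicate 5 and -0.10 without g2 replicate 2 in the keratin list. Scaled to library totals, the numbers lower and higher were 3 and 3 in the drug-metabolizing enzymes list, and with limma 3 and 3 in the drug-metabolizing enzymes list. Through the group with the higher level alone, the level filter was passed by 2 of the 2 higher in the hydrolase list.

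A list that the study made from ileal biopsies, other samples than these, holds 470 genes whose levels there followed LHFPL3-AS2. Of these, 411 were found among the genes here. Of the 273 tested, 31 were called lower and 58 higher, that is 11.4% and 21.2% against 12.1% and 11.1% over all genes. With library totals as the scale 43 were lower and 37 higher, against 2047 and 688 of all 11399 genes. The level filter was passed only with g2 by 10 of the higher genes, among them PTPRR, NTS and GUCY2C, and only with gCtl by 7 of the lower ones. The median log2 fold change of the 273 was 0.13, against 0.025 over all genes. With library totals it was -0.064, against -0.17 over all genes. Among those that rose were PTPRR, NTS, GUCY2C, AGR3, SLC6A20, MYO1A, MEP1A, HNF4G and THRB. A count that moved by over 1.5 times when 1 library was left out was 17 lower in the ileal co-expression list without g2 replicate 2.

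In the Wnt pathway the target and feedback genes had the largest share of called genes. Of 20 target and feedback genes, 10 were called lower and 2 higher (median -0.82), where 12.1% of all tested genes were called lower and 11.1% higher. LEF1, a DNA-binding partner of beta-catenin that is also its target, had 22.6, 20.5, 19.7, 19.8 and 25.1 CPM in the gCtl libraries and 1.64 and 3.13 CPM in the g2 libraries (log2 fold change -3.13 ± 0.34 (SE), adjusted p = 7.7e-05). NKD1, an inhibitor induced by the pathway, had 56.4, 67.6, 57.2, 53 and 63.7 CPM in the gCtl libraries and 10.4 and 11.2 CPM in the g2 libraries (log2 fold change -2.46 ± 0.21 (SE), adjusted p = 1.9e-05). AXIN2, the feedback scaffold of the destruction complex (-1.24 ± 0.34), and EPHB2, a receptor of crypt cells (-0.96 ± 0.20), also fell, while SOX4, a transcription factor, rose (1.93 ± 0.17). Of 24 genes of the beta-catenin core and TCF/LEF factors, 4 were called lower and 2 higher (median -0.27), that is 16.7% and 8.33%, and TLE4, a corepressor, fell (-1.31 ± 0.22). Of 15 ligands, receptors and agonists, 3 were called lower and 3 higher (median 0.07, -0.13 with library totals). The receptors ROR1 and FZD4 fell and the ligand carrier WLS rose (-2.84 ± 0.29, -1.21 ± 0.24 and 0.93 ± 0.23, in that order). The difference between these 3 lists was not tested. Of the 10 lower target and feedback genes 2, LEF1 among them, passed the level filter only with gCtl, so their p-values are descriptions. Without g2 replicate 1, the call was lost for AXIN2 (log2 fold change -0.89). A count that moved by over 1.5 times when 1 library was left out was 0 higher in the beta-catenin core list without gCtl replicate 3. List medians that moved by over 1.5 times with 1 library left out reached -0.46 or -0.066 without g2 replicate 1 or gCtl replicate 5 and 0.18 or 0.34 without g2 replicate 2 or gCtl replicate 2 in the Wnt ligand and receptor list. Scaled to library totals, the numbers lower and higher were 7 and 0 in the beta-catenin core list and 3 and 1 in the Wnt ligand and receptor list, and with limma 8 and 0 in the beta-catenin core list.

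Of 32 genes of the BMP and TGF-beta pathway, 7 were called lower and 4 higher (median -0.10), against 12.1% lower and 11.1% higher of all tested genes. The ligands BMP4 and TGFB2 fell beside INHBB, with 204, 297, 315, 319.6 and 413 CPM in the gCtl libraries and 40.0 and 50.2 CPM in the g2 libraries for BMP4 (log2 fold change -2.78 ± 0.26 (SE), adjusted p = 2.7e-05) and 5.56, 6.65, 5.77, 6.13 and 6.27 CPM in the gCtl libraries and 0.821 and 1.12 CPM in the g2 libraries for TGFB2 (log2 fold change -2.59 ± 0.50 (SE), adjusted p = 0.0031). Among ERK output and feedback genes, 2 were called lower and 3 higher of 23 (median 0.45), shares of 8.70% and 13%. Beside PTPRR the early response gene FOS rose, with 1.11, 1.66, 1.84, 2.16 and 1.31 CPM in the gCtl libraries and 12.9 and 10.5 CPM in the g2 libraries (log2 fold change 2.82 ± 0.40 (SE), adjusted p = 0.00045), while the transcription factor ETV5 and PHLDA1 fell (-2.70 ± 0.31 and -1.44 ± 0.21, in that order). Of 11 ERBB receptors and ligands, 0 were called lower and 3 higher, among them the receptor ERBB3 (1.20 ± 0.16). Of 16 NF-kB and inflammatory genes, 2 were called lower and 7 higher (median 0.16, -0.034 with library totals), including the cytokine genes CXCL3 and IL32 (1.43 ± 0.23 and 1.10 ± 0.17, in that order). Of 20 Notch pathway genes, 3 were called lower and 3 higher, among them HES6, a helix-loop-helix factor (-1.38 ± 0.24). Of 17 YAP and TEAD targets, 2 were called lower and 4 higher, with the receptor tyrosine kinase AXL and the membrane protein MYOF higher (2.09 ± 0.36 and 1.62 ± 0.17, in that order). With g2 replicate 1 left out, the log2 fold change was 1.24 for AXL. Counts that moved by over 1.5 times when 1 library was left out were 1 or 2 higher in the BMP and TGF-beta list without g2 replicate 1 or 2 or gCtl replicate 1, 2 or 4, 1 higher in the ERBB list without g2 replicate 2, 0 lower in the NF-kB list without g2 replicate 2, 2 or 4 higher in the NF-kB list without g2 replicate 2 or gCtl replicate 3, 1 lower in the Notch list without g2 replicate 2 or gCtl replicate 4, 0 or 1 higher in the Notch list without g2 replicate 1 or gCtl replicate 2 or 4 and 2 higher in the YAP target list without gCtl replicate 4. With 1 library left out, list medians that moved by over 1.5 times reached -0.29 without g2 replicate 1 in the BMP and TGF-beta list, 0.23 without g2 replicate 1 in the ERK list and 0.39 without g2 replicate 2 in the NF-kB list. By the mean difference from gCtl on the scale log2(TMM CPM + 1), the groups overlapped, with 0.18 for gCtl replicate 3 against 0.17 and 0.15 for g2 in the ERBB list. With library totals the numbers lower and higher were 9 and 1 in the BMP and TGF-beta list and 5 and 0 in the Notch list, and with limma 9 and 1 in the BMP and TGF-beta list, 2 and 4 in the NF-kB list and 5 and 0 in the Notch list, and with the length trend removed 4 and 0 in the Notch list. The level filter was passed only with the help of the group in which they were higher by 5 of the 7 lower in the BMP and TGF-beta list and 2 of the 3 higher in the ERK list. TGFB2 and FOS are among these, so their p-values are descriptions.

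Cell division genes were called lower more often than higher. Of 27 G1 cyclins, kinases and inhibitors, 5 were called lower and 1 higher (median -0.40), and CDC25A, a phosphatase that activates cyclin-dependent kinases, and TFDP1, the partner of E2F factors, fell beside CCNE1 (-1.31 ± 0.23 and -1.34 ± 0.23, in that order). Of 49 DNA replication genes, 10 were called lower and 2 higher (median -0.13), a share lower of 20.4%, against 12.1% of all genes, with GINS3 of the replicative helicase among them (-1.47 ± 0.19). Of 49 genes of mitosis and the spindle, 14 were called lower and 1 higher, 28.6% lower (median -0.32). PLK1, the mitotic kinase, had 18.5, 23.3, 19.4, 27.8 and 18.5 CPM in the gCtl libraries and 8.49 and 10.7 CPM in the g2 libraries (log2 fold change -1.15 ± 0.27 (SE), adjusted p = 0.0094). CDC25B and CCNB2, cyclin B2, fell too (-1.47 ± 0.26 and -1.04 ± 0.20, in that order). Of 17 tubulins, 7 were called lower and 0 higher (median -0.39), led by TUBB6 and including TUBG1, gamma-tubulin of the centrosome (-2.16 ± 0.25 and -1.82 ± 0.35, in that order). Of 30 histone genes tested, 0 were called lower and 0 higher by edgeR, with 8 at an unadjusted p under 0.05 and a median of -0.21. DESeq2 called 1 lower, limma 5 lower, and edgeR with library totals 6 lower. Tubulin and histone genes have close copies between which the authors' counting could divide reads. When 1 library was left out, the counts that moved by over 1.5 times were 8 or 9 lower in the G1 list without g2 replicate 1 or gCtl replicate 5, 3 lower in the DNA replication list without g2 replicate 2, 4 higher in the DNA replication list without g2 replicate 1, 9 lower in the mitosis list without g2 replicate 2 or gCtl replicate 2 or 4 and 3 or 6 lower in the histone list without g2 replicate 1 or gCtl replicate 5. List medians that moved by over 1.5 times with 1 library left out reached -0.28 without g2 replicate 1 in the DNA replication list and -0.68 without g2 replicate 1 and -0.051 without g2 replicate 2 in the histone list. The groups overlapped by their mean difference from gCtl, on the scale log2(TMM CPM + 1), with -0.18 for gCtl replicate 5 against -0.15 and -0.28 for g2 in the DNA replication list. Scaled to library totals, the numbers lower and higher were 11 and 1 in the G1 list, and with limma 10 and 1 in the G1 list. Through the group with the higher level alone, the level filter was passed by 2 of the 5 lower in the G1 list.

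Matrix and adhesion genes changed in both directions, and basement membrane and tetraspanin genes were called lower more often than higher. Of 28 laminins, collagens and basement membrane genes, 11 were called lower and 4 higher (median -0.53), where 12.1% of all tested genes were called lower and 11.1% higher. LAMA1, a laminin chain, had 19.3, 50.1, 42.7, 46.2 and 45.4 CPM in the gCtl libraries and 4.38 and 4.24 CPM in the g2 libraries (log2 fold change -3.24 ± 0.39 (SE), adjusted p = 0.00016), and COL2A1 and COL4A5 fell as well, while COL6A3 rose (-3.77 ± 0.66, -3.47 ± 0.67 and 3.15 ± 0.60, in that order). Of 9 mesenchymal and mesothelial genes, 5 were called lower and 2 higher (median -0.81), the higher ones including TAGLN, an actin-binding protein of smooth muscle (2.95 ± 0.45). The list also holds CDH11 and WT1. Of 18 tetraspanins, membrane organisers, 7 were called lower and 4 higher (median -0.47), with TSPAN9 (-2.63 ± 0.50), CD81 (-1.77 ± 0.23) and CD63 (-1.21 ± 0.17) lower. Of 23 cadherins, catenins and nectins, 7 were called lower and 5 higher, with the nectin PVRL1 and P-cadherin, CDH3, lower (-2.57 ± 0.34 and -2.12 ± 0.23, in that order). Of 21 polarity genes, 3 were called lower and 3 higher (median 0.35), near the shares of all genes, where LIN7A, SCRIB and DLG1 (-1.01 ± 0.18) fell and INADL (0.78 ± 0.16) was among those that rose. Limma called 0 polarity genes higher and 3 lower, and with chromosome medians removed 1 was higher and 3 were lower. Dystroglycan, DAG1, and the integrin ITGB5 fell (-1.61 ± 0.22 and -1.62 ± 0.19, in that order), the genes that edgeR called among 14 integrins and dystroglycan. DESeq2 called 3 of these lower, limma 4, and edgeR 5 with library totals and 5 with the length trend removed. Actin and focal adhesion genes were called higher more often than lower, with 3 called lower and 9 higher of 39. Among them were FLNA, a filamin, higher (1.02 ± 0.19) and the cytoplasmic actin ACTG1 lower (-1.08 ± 0.23). Of 17 claudins and tight junction proteins, 2 were called lower and 1 higher, near the shares of all genes. In the absence of g2 replicate 1, COL4A5 had at most 3 counts left in g2, and no fold is given. When g2 replicate 1 was left out, the call was lost for COL6A3 (log2 fold change 1.20). No fold is given without g2 replicate 2 for COL2A1 and COL4A5, which had at most 3 counts left in g2. Leaving out g2 replicate 2, the log2 fold change was 3.95 for COL6A3. When gCtl replicate 3 was left out, the log2 fold change was 3.86 for COL6A3. The thresholds were not passed by INADL with limma (0.58, adjusted p = 0.024). Counts that moved by over 1.5 times when 1 library was left out were 2 higher in the basement membrane list without g2 replicate 1, 4 lower in the cadherin list without g2 replicate 2, 2 higher in the cadherin list without g2 replicate 2, 5 higher in the polarity list without g2 replicate 1 or gCtl replicate 5, 2 higher in the integrin list without g2 replicate 1, 5 or 6 lower in the actin list without g2 replicate 1 or gCtl replicate 5, 3 higher in the actin list without g2 replicate 2 and 3 higher in the tight junction list without g2 replicate 2. With 1 library left out, list medians that moved by over 1.5 times reached -1.23 without g2 replicate 1 and -0.20 without g2 replicate 2 in the tetraspanins list. By the mean difference from gCtl on the scale log2(TMM CPM + 1), the groups overlapped, with -0.24 for gCtl replicate 5 against -0.20 and -0.56 for g2 in the tetraspanins list, -0.19 and -0.11 for gCtl replicate 1 and 5 against -0.18 and -0.066 for g2 in the cadherin list and 0.22 and 0.074 for gCtl replicate 1 and 4 against 0.11 and 0.041 for g2 in the actin list. With library totals the numbers lower and higher were 7 and 2 in the tetraspanins list, 8 and 2 in the cadherin list, 7 and 7 in the actin list and 5 and 0 in the tight junction list, and with limma 8 and 2 in the cadherin list, 7 and 5 in the actin list and 5 and 0 in the tight junction list. The level filter was passed only with the help of the group in which they were higher by 7 of the 11 lower in the basement membrane list, 3 of the 5 lower in the mesenchymal list and 2 of the 3 lower in the polarity list. LAMA1 is among these, so its p-value is a description.

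In protein synthesis and turnover the lysosome had the largest share of genes called lower. Of 38 lysosomal enzymes and membrane proteins, 12 were called lower and 2 higher (median -0.47), where 12.1% of all tested genes were called lower and 11.1% higher. SMPD1, acid sphingomyelinase, had 10.8, 14.7, 23.9, 10.8 and 19.1 CPM in the gCtl libraries and 2.46 and 2.90 CPM in the g2 libraries (log2 fold change -2.55 ± 0.43 (SE), adjusted p = 0.0013), GAA, acid alpha-glucosidase, fell (-2.01 ± 0.48), and the protease LGMN rose (2.14 ± 0.38). The level filter was passed only with gCtl by 3 of the 12 lower lysosomal genes. SMPD1 is among these, so its p-value is a description. Of 81 cytosolic ribosomal proteins, 17 were called lower and 4 higher (median -0.30), among them RPS15 and RPS27A (-1.5 ± 0.27 and -1.19 ± 0.22, in that order). Their mRNAs took 9.21, 8.81, 6.86, 8.35 and 6.87% in gCtl and 5.80 and 6.13% in g2 of all counts. Protein-coding genes as a whole also took a smaller share in g2 (mean 56.9%) than in gCtl (mean 71.2%). With the length trend taken out the median of the ribosomal protein genes was -0.017, with 6 lower and 11 higher, so their direction depended on that step. They also have many processed pseudogenes that can share their reads. Of 45 proteasome subunits, 11 were called lower and 4 higher (median -0.27), led by PSMB10, an immunoproteasome subunit (-2.11 ± 0.30), and with the length trend removed 6 were lower and 6 higher. Of 38 genes of protein entry into the endoplasmic reticulum, folding and glycosylation, 5 were called lower and 0 higher (median -0.35), and of 34 genes of early secretory traffic, 6 were called lower and 0 higher, with TMED9 and LMAN2, cargo receptors, among the latter (-1.72 ± 0.17 and -0.99 ± 0.16, in that order). Of 66 cytosolic chaperones 8 were called lower and 2 higher, of 63 splicing factors 6 and 2, and of 53 translation initiation factors 7 and 1, shares lower of 12.1%, 9.52% and 13.2%, near that of all genes. With library totals 16 splicing factors were called lower and 0 higher. Leaving out g2 replicate 1, the log2 fold change was -2.12 for RPS15. When 1 library was left out, the counts that moved by over 1.5 times were 7 lower in the lysosome list without g2 replicate 2, 4 to 10 lower in the ribosomal protein list without g2 replicate 2 or gCtl replicate 1, 2 or 4, 28 lower in the ribosomal protein list without gCtl replicate 5, 0 higher in the ribosomal protein list without g2 replicate 2, 5 or 6 lower in the proteasome list without g2 replicate 2 or gCtl replicate 2 or 4, 1 higher in the proteasome list without g2 replicate 2, 3 lower in the endoplasmic reticulum list without gCtl replicate 3, 11 lower in the secretory traffic list without g2 replicate 1, 7 higher in the chaperone list without g2 replicate 1, 1 or 3 lower in the splicing factor list without g2 replicate 2 or gCtl replicate 4, 12 or 15 lower in the splicing factor list without g2 replicate 1 or gCtl replicate 5, 4 higher in the splicing factor list without g2 replicate 1 or 2, 4 lower in the initiation factor list without g2 replicate 2 and 3 or 4 higher in the initiation factor list without g2 replicate 1 or 2. List medians that moved by over 1.5 times with 1 library left out reached -0.43 without g2 replicate 1 in the proteasome list. The groups overlapped by their mean difference from gCtl, on the scale log2(TMM CPM + 1), with -0.36 for gCtl replicate 5 against -0.20 and -0.36 for g2 in the ribosomal protein list, -0.067 and -0.069 for gCtl replicate 2 and 5 against -0.049 and -0.068 for g2 in the chaperone list, -0.095 and -0.22 for gCtl replicate 3 and 5 against -0.035 and -0.25 for g2 in the splicing factor list and -0.09 for gCtl replicate 5 against -0.12 and -0.075 for g2 in the initiation factor list. Scaled to library totals, the numbers lower and higher were 25 and 1 in the ribosomal protein list, 18 and 2 in the proteasome list, 11 and 0 in the endoplasmic reticulum list, 11 and 0 in the secretory traffic list and 12 and 1 in the initiation factor list, and with limma 25 and 1 in the ribosomal protein list, 18 and 1 in the proteasome list, 10 and 0 in the endoplasmic reticulum list, 13 and 0 in the secretory traffic list and 11 and 1 in the initiation factor list, and with the length trend removed 2 and 0 in the endoplasmic reticulum list, and with chromosome medians removed 5 and 3 in the proteasome list.

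Genes of glutathione metabolism and other NRF2 targets had called members in both directions, with 10 called lower and 8 higher of 31 (median 0.13, -0.075 with library totals), against 12.1% lower and 11.1% higher of all tested genes. The aldo-keto reductases AKR1C1 and AKR1C2 rose (2.54 ± 0.23 and 2.27 ± 0.35, in that order). They are near-identical, so their estimates can share reads. GPX1, a glutathione peroxidase, fell (-1.69 ± 0.29). The ferritin chains moved apart. FTH1, the heavy chain, had 1493, 1298, 1151, 1222 and 1089 CPM in the gCtl libraries and 3391 and 2467 CPM in the g2 libraries (log2 fold change 1.23 ± 0.18 (SE), adjusted p = 0.0006), and FTL, the light chain, had 533, 373, 407, 401 and 222 CPM in the gCtl libraries and 189 and 68.3 CPM in the g2 libraries (log2 fold change -1.59 ± 0.37 (SE), adjusted p = 0.0083). Both have pseudogenes. Of 18 iron handling genes, 4 were called lower and 2 higher, with STEAP1 lower (-1.72 ± 0.27). Without g2 replicate 1, the log2 fold change was -2.28 for GPX1 and -2.52 for FTL. Without g2 replicate 2, the log2 fold change was 1.40 for AKR1C2, and the call was lost for FTL (log2 fold change -1.04). Counts that moved by over 1.5 times when 1 library was left out were 3 lower in the NRF2 list without g2 replicate 2 and 2 lower in the iron list without g2 replicate 2. With 1 library left out, list medians that moved by over 1.5 times reached -0.025 to 0.0099 without g2 replicate 1 or gCtl replicate 2 or 5 and 0.24 or 0.25 without gCtl replicate 1 or 4 in the NRF2 list. By the mean difference from gCtl on the scale log2(TMM CPM + 1), the groups overlapped, with -0.052, 0.011 and -0.24 for gCtl replicate 2, 3 and 5 against 0.10 and -0.14 for g2 in the NRF2 list and -0.013 and -0.14 for gCtl replicate 2 and 5 against 0.019 and -0.16 for g2 in the iron list.

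Gene families were also taken by name, as the letters before the first digit or hyphen of a symbol, which gave 143 groups of at least 10 tested genes. Over all tested genes 12.1% were called lower and 11.1% higher. The 8 lowest medians belonged to MT (13 lower and 0 higher of 14, median -1.65), NDUFA (6 lower and 0 higher of 13, median -0.80), COX (9 lower and 0 higher of 20, median -0.62), H (0 lower and 0 higher of 10, median -0.57), RPS (14 lower and 3 higher of 41, median -0.47), ABHD (3 lower and 0 higher of 18, median -0.44), KCTD (1 lower and 4 higher of 13, median -0.41) and NDUFB (3 lower and 0 higher of 11, median -0.36). Of the 14 MT genes, 13 are the mitochondrial mRNAs described above, and the other is MT2A, a metallothionein. NDUFA, NDUFB and part of COX are respiratory chain genes. KCTD, adaptors of ubiquitin ligases, had a median below 0 although more of its genes were called higher, such as KCTD18 (1.35 ± 0.28). The 8 highest medians belonged to BCL (2 lower and 5 higher of 18, median 0.62), CYP (1 lower and 5 higher of 15, median 0.55), AC (1 lower and 5 higher of 13, median 0.52), LRP (2 lower and 1 higher of 11, median 0.50), CASP (0 lower and 2 higher of 10, median 0.49), NEK (0 lower and 2 higher of 10, median 0.46), SAMD (0 lower and 2 higher of 10, median 0.46) and KDM (0 lower and 2 higher of 15, median 0.44). The letters AC mix clone-named and enzyme genes, and H mixes histones with unrelated genes. BCL includes the zinc finger factors BCL11A and BCL11B, of which BCL11A had 2.60, 0.831, 4.46, 2.52 and 3.66 CPM in the gCtl libraries and 24.9 and 24.8 CPM in the g2 libraries (log2 fold change 3.11 ± 0.38 (SE), adjusted p = 0.00018) and BCL11B rose too (2.01 ± 0.34). BCL11A passed the level filter only with g2, so its p-value is a description. CASP4 and CASP6, caspases, rose (1.09 ± 0.19 and 0.95 ± 0.21, in that order), as did KDM6A, a histone demethylase (1.11 ± 0.17). The largest shares of called genes, beside MT, were in CD (61.3% of 31), F (58.3% of 12), TSPAN (58.3% of 12) and COL (53.3% of 15), where 23.2% of all genes were called. Symbols of the form CD mark cell surface proteins, of which 10 were called lower and 9 higher. CD24 and CD47 rose (1.90 ± 0.23 and 2.19 ± 0.38, in that order), and CD14 fell (-2.59 ± 0.61). The ZNF group, zinc finger proteins, was the largest of these with 352 tested genes. Of these, 11 (3.1%) were lower and 49 (13.9%) higher, the latter near the share of all genes (ZNF median 0.38). Its median was 0.49 for the 165 on chromosome 19 and 0.26 for the 187 elsewhere. With library totals the median of all genes went from 0.025 to -0.17. The number of groups with a median below 0 went from 60 to 99 of 143 with that shift, which says nothing about single groups. With g2 replicate 1 left out, the log2 fold change was 1.09 for CD47. With g2 replicate 2 left out, the log2 fold change was 2.80 for CD47.

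The direction of change also differed by chromosome. Chromosome 14 had 5.72% lower and 21% higher of 367 tested genes, chromosome 6 had 7.92% lower and 22.4% higher of 581, chromosome 10 had 7.53% lower and 16.0% higher of 438 and chromosome 4 had 6.93% lower and 19.6% higher of 433. On the other side, chromosome 21 had 23% lower and 0.885% higher of 113, chromosome 3 had 21.4% lower and 5.78% higher of 658 and chromosome 20 had 18.4% lower and 7.89% higher of 304. Over all genes the shares were 12.1% and 11.1%. On the scale log2(TMM CPM + 1), each g2 library was set against the 5 gCtl libraries and each gCtl library against the other 4. The median difference of the genes on chromosome 14 was 0.30 and 0.36 in the g2 libraries and -0.019 to 0.047 in gCtl, on chromosome 6 0.34 and 0.21 in the g2 libraries and -0.043 to 0.046 in gCtl, on chromosome 3 -0.24 and -0.34 in the g2 libraries and -0.02 to 0.066 in gCtl and on chromosome 21 -0.38 and -0.29 in the g2 libraries and -0.028 to 0.051 in gCtl. On chromosome 19, which holds many ZNF genes, the g2 libraries lay apart, at -0.041 and 0.22. Along the chromosomes, in windows of 20 Mb with at least 20 tested genes, the median log2 fold change was above 0 in 5 of 5 windows of chromosome 14 and 9 of 9 of chromosome 6. It was below 0 in 10 of 10 windows of chromosome 3. On chromosome 4 it was above 0 in 8 of 10 windows, and the window from 40 to 60 Mb was the lowest, with -0.24. Chromosome 7, which carries the target, had 12.7% lower and 9.32% higher of 526 and a median of 0.0088. With the length trend taken out the medians were 0.32 on chromosome 14 and -0.30 on chromosome 3. With the median of each chromosome taken out of each library 2409 genes were called, of which 2149 were among the 2644. The number of chromosome copies was not measured.

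Sequence matches to the guide were rare in the promoter windows searched. The 8 bases of the spacer next to the NGG motif, written ATGTTTTGNGG, were searched on both strands of 35116 RefSeq promoter windows of 300 bases (250 before to 50 after each start). The windows covered 8831 of the 11399 tested genes. The guide's own site begins at base 115 or 130 of its transcripts, beyond such a window, so matches placed like it were not searched. The bases occurred in 21 windows (0.0598% of all windows), each of another gene, and 4 of these genes were tested here. Of these 4, 0 were called lower and 2 higher, against 12.1% and 11.1% of all tested genes. The 10 and the 12 bases next to NGG each occurred in 1 window, of a gene that was not tested. A match of this kind is a description of letters, not a measured binding site. In the fit over genes of all biotypes, 7607 genes without a protein-coding transcript had at least 10 counts, of which 215 were called lower and 352 higher. The shares called over all 22048 genes of that fit are not given here. The 12.1% and 11.1% above come from another filter, so these counts are not a result about noncoding genes.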

How the data were processed

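The series holds 10 libraries of RNA 3' ends, of which the 2 g2 and 5 gCtl libraries were compared here, grouped by their labels. Per the labels and the study's methods, the authors quantified reads with kallisto against GENCODE v24 and deposited estimated counts per transcript, which were summed per gene and rounded. Strand settings are not given in the sources used here. The genes tested (11399) were protein-coding and exceeded 3 RPM in 20% or more of the 7 libraries, that is in 2 or more. The test was edgeR 4.0.16 (quasi-likelihood, TMM, Benjamini-Hochberg, R 4.3.3). Called genes had an adjusted p of 0.05 or less and a fold of 1.5 or more. LHFPL3-AS2 and noncoding genes came from a fit over all biotypes with at least 10 counts. Lists were described by counts and medians, with no set test. Library shares were compared by exact two-sided permutation. Intervals of count ratios (95%) and the limits of 0 counts cover counting error only, as no molecular identifiers were counted.

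The members, gene lists and alternatives were chosen with earlier results of these data known. Some genes are not reported here. The others were named by a rule, which took the 15 largest changes each way without overlap between the groups and a mean of at least 10 CPM in the higher group, up to 4 called members per list, up to 3 per name group, and the genes that the study measured by qPCR or western blot. Alternatives were DESeq2 1.42.0, limma 3.58.1 on log2(RPM + 1), other scalings and filters, removal of the length trend, thinning, and each library left out. RPM over protein-coding counts and removal of chromosome medians were added after seeing the data. Replicate pairs differed beyond sampling noise (chi-square per degree of freedom 4.28 to 20.9 in 11 pairs), so each library counted once. On simulated counts for this comparison over 11399 genes, of which 200 were changed, edgeR recovered 0.5% at 1.5-fold, 36.5% at 2-fold and 85% at 3-fold. Depth was 3838803 to 7325087 counts per library.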

Additional observations from a re-analysis of the deposited data

Results flagged for a closer look

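In the 5 gCtl libraries, 168 levels and shares were searched for a library far from the rest of its group (Dixon's criterion, 0.71 for 5 libraries), and 10 were found. Chance alone marks about 1 group in 20. Library 1 was low for AHSG (178 CPM, others 241 to 264) and LAMA1 (19.3 CPM, others 42.7 to 50.1). Library 2 was high for CDC25B (72.8 CPM, others 43 to 51.2), PDZK1 (80.04 CPM, others 56.8 to 63.5) and RP11-529K1.3 (3.60 CPM, others 0), and low for COLGALT2 (13.02 CPM, others 17.0 to 17.3). Library 3 was high for AXL (14.2 CPM, others 5.75 to 8.16) and COL6A3 (17.3 CPM, others 3.13 to 6.13). Library 5 was high for SLC35D3 (22.7 CPM, others 8.86 to 10.8) and low for SCRIB (3.92 CPM, others 6.49 to 7.48). The g2 group, with 2 libraries, is too small for this search.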

How the results depend on the processing

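Across all settings no gene called both in the main analysis and in an alternative changed direction. The settings use the same libraries or part of them and both calls were required, so this is a description only. Of the 2644 main calls, 2064 were also called with library totals and 1962 with limma. A test against a fold of 1.5 called 763 genes (468 lower, 295 higher). With library totals 2047 were lower and 688 higher (74.8% lower, against 52.0%), and with limma 2079 and 590. Genes of all biotypes gave 2945 and the filters 2694 (filterByExpr) and 2875 (none). Leaving out single libraries gave 1619 to 3201 called, 882 to 1707 lower and 737 to 1494 higher, the lowest without g2 replicate 2 and the highest without g2 replicate 1. The number of lists with more genes called higher than lower was 14 to 25 with 1 library left out. It was 9 with library totals and 8 with limma, settings under which fewer of all genes were also called higher. In the ileal list the higher genes numbered 37 with library totals, 34 with limma and 22 in the test against 1.5-fold, which left 9 lower, and 17 to 32 were lower with 1 library left out. Name groups with a median below 0 rose to 99 with library totals, under which the median of all genes also fell, to -0.17. The difference in the share of mitochondrial rRNA lay between -3.94 and -0.303 percentage points with 1 library left out. The guide's 10 or 12 bases matched 0 promoters of the 8831 tested genes that had one. Of 161 named genes, TJP1, not called, changed sign, with -0.16 to 0.045 when 1 library was left out. The cause of these differences was not tested. No paired analysis was possible because the labels give no replicate numbers. The medians of chromosomes 3, 4, 6, 14, 20 and 21 relative to all genes kept their sign with library totals, with the length trend removed and with each library left out. With 1 g2 library the spread is taken from gCtl. In the simulation, where 200 of 11399 genes were changed, edgeR recovered 0.5% at 1.5-fold and 36.5% at 2-fold. In the data 2644 genes were called, some at under 2-fold, such as EPHB2 (-0.96) and EZR (0.95), so these rates need not hold for them. Changes under 2-fold can still be missed with 2 g2 libraries.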

Other observations

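Carriers of ions were called lower more often than higher. Of 25 ion, phosphate and metal transporters, 7 were called lower and 4 higher (median -0.37), against 12.1% and 11.1% of all tested genes. Beside KCNJ8, ATP1B1, a subunit of the sodium pump, fell (-1.12 ± 0.25), and SLC4A4, a sodium bicarbonate cotransporter, rose (1.68 ± 0.34). Of 29 ABC transporters, 4 were called lower and 3 higher, with ABCA1, which exports cholesterol, lower and ABCG2, a drug exporter, higher (-1.60 ± 0.42 and 1.06 ± 0.18, in that order). In the list of 18 genes of cyclic nucleotide signalling GUCY2C and PDE3A, given above, were the genes called by edgeR. Of 7 enteroendocrine and peptide hormone genes, 1 was called lower and 2 higher, namely UCHL1, NTS and CPE, carboxypeptidase E of hormone granules (1.52 ± 0.35). When g2 replicate 1 was left out, the log2 fold change was -1.78 for ATP1B1 and -2.48 for ABCA1. When g2 replicate 2 was left out, the call was lost for ABCA1 (log2 fold change -1.03) and CPE (log2 fold change 1.12). Counts that moved by over 1.5 times when 1 library was left out were 2 lower in the ABC transporter list without g2 replicate 2 and 6 higher in the ABC transporter list without g2 replicate 1. With 1 library left out, list medians that moved by over 1.5 times reached -0.23 without g2 replicate 2 in the ion transporter list. The level filter was passed only with the help of the group in which they were higher by 2 of the 4 lower in the ABC transporter list and 2 of the 2 higher in the cyclic nucleotide list.

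Of 15 oncofetal genes, 1 was called lower and 2 higher, where 12.1% of all tested genes were called lower and 11.1% higher. IGF2, insulin-like growth factor 2, had 4621, 8317, 7022, 6495 and 9426 CPM in the gCtl libraries and 1543 and 1445 CPM in the g2 libraries (log2 fold change -2.26 ± 0.28 (SE), adjusted p = 0.00018), and the DNA-binding factor ARID3A rose (1.05 ± 0.22). Of 18 annexins and S100 proteins, calcium-binding proteins, 2 were called lower and 2 higher, with S100A11 lower and S100P higher (-2.20 ± 0.50 and 1.62 ± 0.21, in that order). Of 41 RAB GTPases, switches of vesicle traffic, 4 were called lower and 4 higher, with the epithelial RAB25 lower and RAB27A, of secretory granules, higher (-1.46 ± 0.37 and 1.55 ± 0.46, in that order). Of 24 genes of CDC42 and its effectors, 3 were called lower and 4 higher, with CDC42EP3 and CDC42EP1 lower and CDC42EP2 higher (-1.65 ± 0.28, -1.22 ± 0.35 and 1.18 ± 0.21, in that order). Of 15 genes of MHC class I antigen presentation, 4 were called lower and 2 higher, where the immunoproteasome subunits PSMB10 and PSMB9 moved apart (-2.11 ± 0.30 and 1.5 ± 0.37, in that order). Of 28 interferon-stimulated genes, 1 was called lower and 3 higher, with IFI30, a lysosomal thiol reductase, lower (-3.28 ± 0.44). Of 21 p53 targets, 2 were called lower and 2 higher, and of 32 genes of the unfolded protein and integrated stress response, 5 were called lower and 2 higher. Leaving out g2 replicate 1, the log2 fold change was -2.92 for S100A11 and -2.35 for RAB25, and the call was lost for CDC42EP1 (log2 fold change -1.05). Leaving out g2 replicate 2, the log2 fold change was -4.40 for IFI30, and the call was lost for ARID3A (log2 fold change 0.46), S100A11 (log2 fold change -1.69), RAB25 (log2 fold change -0.88), RAB27A (log2 fold change 0.86), CDC42EP1 (log2 fold change -1.44) and PSMB9 (log2 fold change 0.41). With gCtl replicate 2 left out, the call was lost for RAB27A (log2 fold change 1.39). Leaving out gCtl replicate 3, the call was lost for RAB27A (log2 fold change 1.58). The thresholds were not passed by RAB27A with limma (1.37, adjusted p = 0.056) and PSMB9 with limma (1.05, adjusted p = 0.057). When 1 library was left out, the counts that moved by over 1.5 times were 3 lower in the oncofetal list without g2 replicate 1, 4 lower in the annexin and S100 list without gCtl replicate 5, 1 or 2 lower in the RAB list without g2 replicate 2 or gCtl replicate 2 or 4, 8 lower in the RAB list without g2 replicate 1, 2 higher in the CDC42 list without g2 replicate 2 or gCtl replicate 1 or 2, 2 lower in the antigen presentation list without g2 replicate 2, 3 lower in the interferon list without gCtl replicate 5, 1 higher in the interferon list without g2 replicate 2, 5 higher in the interferon list without g2 replicate 1, 5 lower in the p53 list without g2 replicate 1 and 0 higher in the stress response list without g2 replicate 2. The groups overlapped by their mean difference from gCtl, on the scale log2(TMM CPM + 1), with -0.007, 0.21 and 0.013 for gCtl replicate 1, 2 and 3 against -0.051 and 0.11 for g2 in the interferon list and -0.17 for gCtl replicate 5 against -0.06 and -0.29 for g2 in the stress response list. Scaled to library totals, the numbers lower and higher were 3 and 1 in the oncofetal list, 4 and 2 in the annexin and S100 list, 7 and 4 in the RAB list, 5 and 2 in the CDC42 list, 3 and 2 in the interferon list and 8 and 2 in the stress response list, and with limma 8 and 3 in the RAB list and 8 and 2 in the stress response list. Through the group with the higher level alone, the level filter was passed by 2 of the 4 lower in the RAB list and 2 of the 2 lower in the p53 list.

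Among genes without a protein-coding transcript, named here after their values were seen, RP11-138C9.1, an antisense gene on chromosome 17, had 55.3, 105, 63.5, 75 and 53 CPM in the gCtl libraries and 0 and 0 CPM in the g2 libraries. RP11-161H23.5, an antisense gene on chromosome 12, had 43.8, 182, 103, 155 and 33.7 CPM in the gCtl libraries and 0 and 0 CPM in the g2 libraries. For these 2 genes a count of 0 allows up to 0.489 and 0.410 RPM in the g2 libraries (3 counts per library). AC132217.4, annotated as a noncoding RNA that overlaps the 3' end of another gene, on chromosome 11, had 1069.8, 1011, 1084, 1025 and 834 CPM in the gCtl libraries and 237 and 25.5 CPM in the g2 libraries (log2 fold change -3.01 ± 0.55 (SE), adjusted p = 0.0022). THRB-AS1, antisense to THRB, had 1.48, 1.94, 3.67, 1.08 and 4.44 CPM in the gCtl libraries and 69.3 and 45.8 CPM in the g2 libraries (log2 fold change 4.34 ± 0.35 (SE), adjusted p = 2.7e-06), in the same direction as THRB. Whether the authors' counting used strand is not given in the sources used here, so reads of an antisense gene and its partner cannot be told apart.

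The first principal component of the 7 libraries held 53.3% of the variance and put the g2 libraries at 42.2 and 66.0 and gCtl between -27.6 and -10.1. On this component replicate 5 lay nearest to g2 among the gCtl libraries. The second component, with 18.3%, put the g2 libraries apart, at 34.1 and -19.4.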
